A study of Arabidopsis thaliana with 8 samples.

Results

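Extensins are hydroxyproline-rich structural proteins of the plant cell wall. Their proline residues are hydroxylated and carry arabinose chains, their serines can carry galactose, and class III peroxidases cross-link their tyrosines into a network. In Arabidopsis roots several extensins and their modifying enzymes are known for the walls of root hairs. Described here are 10 extensin-type loci, AT3G28550, AT2G24980 (EXT6), AT4G08400, AT4G08410, AT4G13390 (EXT12), AT5G06630, AT5G06640 (EXT10), AT5G35190 (EXT13), AT3G54580 and AT3G54590 (HRGP1). Of these, 5 had a probe set that the platform annotation pairs with a single gene, among 13286 such loci on the array. They are AT3G28550, AT4G08410, AT5G06630, AT3G54580 and HRGP1. AT4G08400 shares its annotated probe set with AT4G08410, and the other 4 loci were not analysed here. The loci were selected on their protein family by a choice made with the zone signals of these arrays in view. Their levels and zone differences are therefore a description, with no p-value.

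The samples were root sections of Arabidopsis thaliana, ecotype Columbia, from 4 longitudinal zones numbered 1 to 4, with 2 arrays per zone. All seedlings had 5 days on full-strength MS medium and then 3 hours on sulfur-deficient medium, which the sample titles call low sulfur. Every group thus shares the sulfur treatment, and the comparisons concern position along the root. The labels do not state which zone is nearest the tip, or whether the replicates of a zone came from separate plants, so errors may be technical. Median signals ranged from 57.8 to 79.6 across arrays. GAPDH control probe sets gave a 3' to 5' ratio of 64.3 and 13.2 in zone 1 and of 14.8 to 32.2 elsewhere. The RNA was amplified in 2 cycles, so RNA integrity and amplification cannot be told apart in this ratio. Its part in the results was not tested. In tissue sections, fewer cells of a type and less RNA per cell cannot be told apart.

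All 5 genes had their lowest mean signal in zone 1, and 4 of them their highest in zone 4. AT3G28550, annotated as a proline-rich extensin-like gene, had signals of 1.52 and 1.01 in zone 1, 9.43 and 105.5 in zone 2, 311.1 and 255.7 in zone 3, and 269.3 and 387.7 in zone 4 (replicates 1 and 2). The zone 1 arrays were the lowest and the zone 2 arrays lay between them and the rest, 11.2-fold apart from each other. HRGP1, which encodes a hydroxyproline-rich glycoprotein, had 41.7 and 26.2, then 105.1 and 175.7, then 249.2 and 414.4, and in zone 4 288.8 and 612.9. Its zones 1, 2 and 3 did not overlap, whereas the lower zone 4 array lay between the arrays of zone 3.

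The other 3 genes were dimmer. AT4G08410 had signals of 16.1 and 15.1 in zone 1, 25 and 36.8 in zone 2, 45.5 and 28.7 in zone 3, and 54 and 71.9 in zone 4. Zone 4 was above all other arrays, and zones 2 and 3 overlapped. AT5G06630 had 17.5 and 12.1, then 25 and 39.1, then 19.7 and 80, and finally 43.8 and 140.8. Its zone 3 arrays enclosed both zone 2 arrays, and replicate 2 was above replicate 1 by 4.07-fold in zone 3 and 3.22-fold in zone 4. AT3G54580 had 14.1 and 17.3, then 28.7 and 46.9, then 40.8 and 27.4, and finally 48.1 and 5.7. This gene differed from the other 4: its highest mean was in zone 2, at 37.8 ± 13 (SD, n = 2), and its zone 4 arrays held both its highest and its lowest signal.

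**Figure D1:**
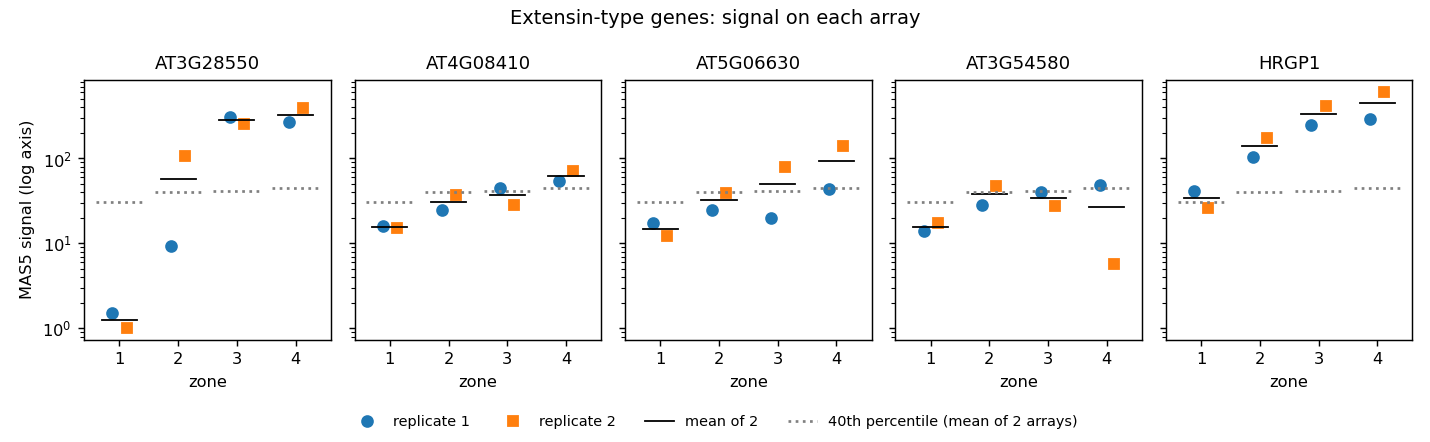
MAS5 signal (log axis) of the 5 extensin-type genes on each of the 8 arrays, by zone. Circles and squares are replicates 1 and 2, black lines the mean of 2, and dotted lines the 40th percentile of all probe sets. AT3G28550 went from 1.01 and 1.52 in zone 1 to 269.3 and 387.7 in zone 4, and AT3G54580 had 48.1 and 5.7 in zone 4.

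How far the signals stood above the dim end of the arrays differed among the genes. The 40th percentile of an array's signals ranged from 27.1 to 47.6. HRGP1 was above it on 7 of 8 arrays, AT3G28550 on 5, AT4G08410 and AT3G54580 on 3 each and AT5G06630 on 2. Only probe sets with a mean signal above 42.5 were tested. The mean is over all 8 arrays, so a gene dim in zone 1 passed only through its signals in other zones. AT5G06630 lay just inside, at 47.2, and AT4G08410 just outside, at 36.6, with AT3G54580 at 28.6, so 3 of the 5 entered the tests. The probe set shared by AT4G08400 and AT4G08410 had signals from 0.79 to 6.57 over the 8 arrays, below the 40th percentile on each.

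Zone 1 was below the other zones for most of these genes. A call required a 2-fold difference or more with a limma adjusted p below 0.05. For the extensin-type genes, chosen with these contrasts known, the calls are given as a description. In zone 3 against zone 1, AT3G28550 and HRGP1 of the 3 tested were called higher, as were 18.0% of all probe sets tested. AT3G28550 differed by 7.83 on the log2 scale (SE 0.98) and HRGP1 by 3.28 (SE 0.48). AT5G06630 had 1.45 (SE 0.94), and the untested AT4G08410 and AT3G54580 had 1.21 (SE 0.74) and 1.09 (SE 1.04) in a fit without the filter. Both zone 3 arrays were above both zone 1 arrays for 5 of 5 genes, which also held for 33.7% of all probe sets. The size for AT3G28550 rests on zone 1 signals near the bottom of the scale: when each dim signal was replaced by its array's 40th percentile, its difference was 3.22, while HRGP1 kept 3.26.

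In zone 4 against zone 1 the same 2 genes were called higher, against 10.5% of all probe sets. The log2 differences were 8.03 (SE 0.98) for AT3G28550 and 3.67 (SE 0.48) for HRGP1. AT5G06630 had 2.43 (SE 0.94) and AT4G08410 2.00 (SE 0.74), while AT3G54580 had 0.08 (SE 1.04). After that replacement of dim signals, AT3G28550 had 3.42, HRGP1 3.64, AT5G06630 1.39, AT4G08410 1.04 and AT3G54580 0.62. The arrays of the 2 zones did not overlap for 4 of 5 genes, zone 4 being above, as for 29.7% of all probe sets.

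In zone 2 against zone 1, AT3G28550 (log2 difference 4.67, SE 0.98) and HRGP1 (2.04, SE 0.48) were again called higher, against 7.28% of all probe sets. The other 3 had differences from 0.96 to 1.23. Both zone 2 arrays were above both zone 1 arrays for 5 of 5 genes and for 29.6% of all probe sets. Neither call was made without zone 2 replicate 2 and 1 was made without zone 1 replicate 2, and with dim signals raised AT3G28550 had 1.01 and HRGP1 2.01. Leaving out either zone 2 array moved AT3G28550 to 2.93 or 6.41. These comparisons share the zone 1 arrays, so they are not separate evidence.

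Beyond zone 2 the differences varied from gene to gene, and no gene was tested against another. In zone 3 against zone 2 none of the 3 tested was called higher, and 0% of all probe sets were, with 2470 at an unadjusted p under 0.05 in limma. AT3G28550 had a log2 difference of 3.16 (SE 0.98), which became 1.42 or 4.90 on dropping the first or the other array of zone 2, and 2.21 after dim signals were raised. HRGP1 had 1.24 (SE 0.48), while AT4G08410, AT5G06630 and AT3G54580 had 0.25, 0.34 and -0.13. In zone 4 against zone 3 none of the 3 was called higher, against 1.85% of all probe sets. The differences were 0.20 for AT3G28550, 0.39 for HRGP1, 0.79 for AT4G08410, 0.99 for AT5G06630 and -1.01 for AT3G54580. Several of these changed sign in other settings. AT3G28550 had -0.05 with each array centred on its median, HRGP1 and AT3G28550 reached -0.15 and -0.07 when 1 array was left out, and AT3G54580 had 0.08 with dim signals raised.

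Over all 8 arrays, 4 of the 5 genes followed one another and AT3G54580 did not. Over the 8 arrays the log2 signals of AT3G28550 and HRGP1 correlated with r = 0.965, AT3G28550 and AT4G08410 with 0.907, and AT5G06630 and HRGP1 with 0.872. Over the 6 arrays of zones 2 to 4 these values were 0.858, 0.715 and 0.818. AT5G06630 had r = 0.746 with AT3G28550 and 0.723 with AT4G08410 over the 8 arrays, and 0.478 and 0.446 over zones 2 to 4. AT3G54580 had r between -0.314 and 0.213 with the others over the 8 arrays, and between -0.76 and -0.211 over zones 2 to 4. The points share arrays and the step from zone 1, and these values are a description. In the TAIR10.1 gene order AT3G54580 and HRGP1 are neighbours on chromosome 3 with 0 annotated genes between them, and their signals correlated with r = 0.022. AT5G06630 and EXT10 on chromosome 5 are 1 non-coding gene apart, and AT4G08400 and AT4G08410 on chromosome 4 are 2 genes apart. The probe sets of AT4G08410, AT5G06630 and HRGP1 carry the suffix that Affymetrix gives to sets with probes that can match other sequences. Signal from near-identical extensin transcripts could not be told apart from these genes' own.

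Of 9 loci listed for enzymes that build extensin glycans, 4 had a named probe set. These 4 had their lowest mean signal in zone 1 and their highest in zone 3 rather than zone 4. This list and those below were drawn up with earlier results of these arrays known. Up to 4 genes per list were named for the largest zone 3 against zone 1 difference. Adjusted p-values of list genes are therefore a description too. Of 4 glycosyltransferase genes tested, 4 were called higher in zone 3 than in zone 1, as were 18.0% of all probe sets tested. The list median was 1.66, against -0.01 over all probe sets tested. AT5G13500, a hydroxyproline arabinosyltransferase gene, had signals of 171.5 and 286.6 in zone 1, 434.6 and 404.7 in zone 2, 946.4 and 749.3 in zone 3, and 375.6 and 450.4 in zone 4. It was higher in zone 3 by 1.93 on the log2 scale (SE 0.34, limma adjusted p = 0.002). The zone 3 arrays were above all others. AT3G01720, a serine galactosyltransferase gene, was higher by 1.76 (SE 0.38, adjusted p = 0.0053), and the arabinosyltransferase genes AT3G57630 and XEG113 by 1.56 and 1.18 (adjusted p = 0.0075 and 0.024). AT3G57630 was not called without zone 3 replicate 1 (adjusted p = 0.065), nor XEG113 without zone 1 replicate 1 (0.13) or without either of the zone 3 arrays (0.051 and 0.12). In zone 4 against zone 1, 0 of 4 was called, against 10.5% of all probe sets called higher. The differences were from 0.51 to 0.89. Without zone 1 replicate 2 those of AT5G13500 and XEG113 rose to 1.26 and 1.25, above 2-fold, so the lack of a zone 4 call is not firm. In zone 4 against zone 3 the list median was -1.02 with 0 called, against 36 of all 13647 probe sets tested called lower. Whether the step from zone 3 to zone 4 differs between these enzymes and the extensin-type genes was not tested.

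Prolyl 4-hydroxylases make the hydroxyproline that carries those glycans. Of 6 genes tested, 1 was higher in zone 3 than in zone 1 and none lower (list median 0.42), a count near the 18.0% of all probe sets called higher. This was AT5G18900, with 167.9 and 244.6 in zone 1, 453.1 and 585.2 in zone 2, 1077 and 678.6 in zone 3, and 640.7 and 508.7 in zone 4. Its log2 difference was 2.08 in zone 3 (SE 0.36, adjusted p = 0.0017), 1.49 in zone 4 (adjusted p = 0.022) and 1.35 in zone 2 (adjusted p = 0.038), each against zone 1. The zone 4 call was lost with each array centred on its median (adjusted p = 0.074), when zone 1 replicate 1 was dropped (0.072) and on dropping either array of zone 4 (0.14 and 0.10). The zone 2 call was lost in 8 of the 17 alternative settings. AT1G20270 and AT5G66060 had differences of -1.38 (adjusted p = 0.10) and 0.78 (adjusted p = 0.14) in zone 3 against zone 1, and AT1G20270 passed without zone 1 replicate 1 (-2.17, adjusted p = 0.031). AT3G28490 was below the filter, with signals from 0.63 to 23.1.

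Peroxidase genes linked to extensin cross-linking had a wide replicate spread and zone 1 signals below the 40th percentile of their arrays, so that the sizes of their differences rest on dim values. Of 7 loci listed, 4 had a named probe set, and all 4 were tested. In zone 3 against zone 1, 3 were called higher (list median 4.56), as were 18.0% of all probe sets tested. In zone 4 against zone 1, 2 were called higher (list median 5.53), against 10.5%. AT1G30870, AT4G26010 and AT1G44970 passed the signal filter only through zones 3 and 4, with zone 2 means of 42.42, 17.25 and 10.83. AT4G26010, whose product acts on root hair extensins, had 9.09 and 1.13 in zone 1, 2.29 and 32.2 in zone 2, 579.6 and 51.9 in zone 3, and 193.4 and 2536 in zone 4. Replicate 2 was 13.1-fold above replicate 1 in zone 4, and below it in zone 3. The log2 difference from zone 1 was 5.76 in zone 3 (SE 1.65, adjusted p = 0.019) and 7.77 in zone 4 (adjusted p = 0.013). AT1G30870 had 30.9 and 1.11, then 3.79 and 81.1, then 634.6 and 208.2, and finally 447.6 and 2541, with differences of 5.96 (adjusted p = 0.015) and 7.51 (adjusted p = 0.014). For both genes the zone 3 call was lost without zone 1 replicate 2 (adjusted p = 0.11 for each) or zone 3 replicate 1 (0.17 and 0.095). The zone 4 call was lost without zone 1 replicate 2 (0.063 and 0.067) or zone 4 replicate 2 (0.18 and 0.14). With dim signals raised, AT4G26010 had 2.52 in zone 3 (adjusted p = 0.075) and 4.53 in zone 4 (adjusted p = 0.013). AT1G30870 then had 3.59 and 5.14 (adjusted p = 0.0021 and 0.00064).

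The remaining peroxidase genes, AT4G16270 and AT1G44970, are known for extensin cross-linking in anthers. AT4G16270 was higher in zone 3 than in zone 1 by 3.35 (SE 0.82, adjusted p = 0.0094), or by 1.79 with dim signals raised (adjusted p = 0.014). AT1G44970 had a difference of 2.50 (adjusted p = 0.14), with signals of 46.6 and 586.2 in zone 4. Neither was called in zone 4 against zone 1 (2.70, adjusted p = 0.052, and 3.55, adjusted p = 0.082), but AT4G16270 passed without zone 4 replicate 2 (0.042) and AT1G44970 without zone 4 replicate 1 (0.046). In zone 4, replicate 2 was above replicate 1 in 3 of these 4 peroxidase genes, by 5.68-fold to 13.1-fold, and in 4 of the 5 extensin-type genes, by 1.33-fold to 3.22-fold. In zone 3 the ratio of replicate 2 to 1 was 0.33, 0.09 and 0.18 for AT1G30870, AT4G26010 and AT1G44970, and 1.07 for AT4G16270. It was 0.82, 0.63 and 0.67 for AT3G28550, AT4G08410 and AT3G54580, and 4.07 and 1.66 for AT5G06630 and HRGP1. The share over all probe sets was not analysed here.

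**Figure D2:**
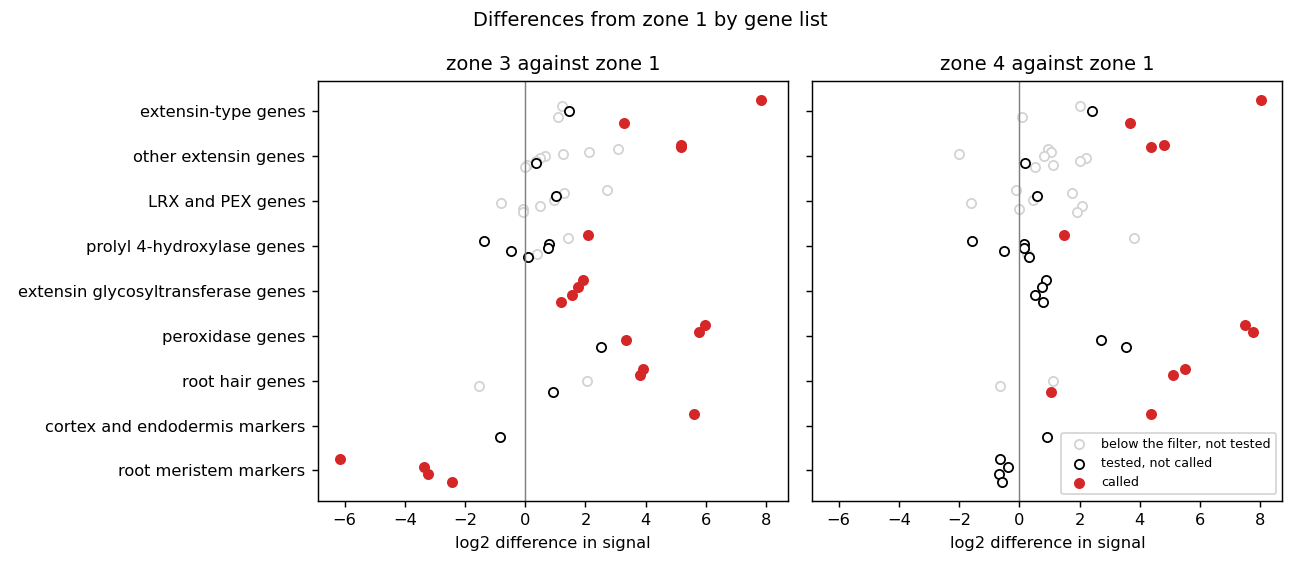
Log2 difference in signal of zone 3 (left) and zone 4 (right) against zone 1, 1 point per gene, for the extensin-type genes and each gene list with a named probe set. Filled points were called, open black points were tested and not called, and grey points lay below the signal filter. The 4 glycosyltransferase genes are filled in zone 3, with 1.18 to 1.93, and open in zone 4, with 0.51 to 0.89.

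Among other extensin-type genes outside the 10 loci, 2 of the 3 bright enough to test were low in zone 1. Of 16 such loci listed, 11 had a named probe set and 3 passed the filter, and the 8 below it had signals of at most 62.5. In zone 3 against zone 1, 2 of the 3 tested were called higher, as were 18.0% of all probe sets tested. These 2, AT1G23720 and AT1G70990, had zone 1 means of 9.07 and 7.45 and passed the filter only through the other zones. The third, AT4G16140, had 112.2 and 210.1 in zone 1 and 135.2 and 285.9 in zone 3. Its difference was 0.36 (SE 0.45, adjusted p = 0.55 in limma). AT1G23720, a proline-rich extensin-like gene, had 5.41 and 12.7 in zone 1, 72.1 and 121.2 in zone 2, 211.2 and 416.5 in zone 3, and 108.4 and 274.5 in zone 4. Zone 1 lay below all other arrays, and zones 3 and 4 overlapped. Its log2 difference was 5.16 in zone 3 (SE 0.62, adjusted p = 0.00032), 4.38 in zone 4 (adjusted p = 0.0019) and 3.49 in zone 2 (adjusted p = 0.0095, or 0.14 without zone 2 replicate 2). AT1G70990 was higher by 5.18 in zone 3 (SE 1.03, adjusted p = 0.0034) and by 4.82 in zone 4 (adjusted p = 0.013, and 0.094 or 0.098 without either zone 4 array). With dim signals raised, the zone 3 differences were 3.29 and 2.23, and both were called. AT1G26250 and AT5G11990 were below the filter, with signals from 0.94 to 25.7 and from 7.38 to 62.5.

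Leucine-rich repeat extensins, chimeric wall proteins with an extensin domain, gave little to compare. Of 8 genes with a named probe set 1 passed the filter, AT4G18670, with a difference of 1.02 in zone 3 against zone 1 (SE 0.78, adjusted p = 0.32). Its signals ranged from 21.5 to 75 over the 8 arrays. AT3G19020, AT2G15880 and AT3G22800 were below the filter. The 15 loci of the proline-rich extensin-like receptor kinase list were not analysed here.

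Root hair expansin genes were higher in zones 3 and 4 than in zone 1. Of 36 loci listed, 5 had a named probe set and 3 were tested, so most of the list was not analysed here. In zone 3 against zone 1, 2 of the 3 were called higher (18.0% of all probe sets), in zone 4 against zone 1, 3 (10.5%), and in zone 2 against zone 1, 0 (7.28%). EXPA7, a root hair expansin gene, had 17.4 and 4.89 in zone 1, 24.9 and 71.9 in zone 2, 144.7 and 117.6 in zone 3, and 163.6 and 618.6 in zone 4. Zones 3 and 4 lay above all arrays of zones 1 and 2. Its difference from zone 1 was 3.82 in zone 3 (SE 0.81, adjusted p = 0.0047) and 5.11 in zone 4 (adjusted p = 0.0032). EXPA18, a second hair expansin gene, had 3.90 (adjusted p = 0.014) and 5.49 (adjusted p = 0.0081), with 153.5 and 1268 in zone 4. All 4 zone 1 signals lay below the 40th percentile of their array. EXPA7 and EXPA18 had means of 11.16 and 15.24 in zone 1 and of 48.42 and 28.48 in zone 2. Both passed the signal filter through zones 3 and 4, where they were high, so their calls there are a description. With dim signals raised the differences in zones 3 and 4 were 2.11 and 3.4 for EXPA7 and 2.28 and 3.87 for EXPA18, and all 4 were called. Without zone 4 replicate 2 the zone 4 calls were lost (adjusted p = 0.062 for EXPA7 and 0.12 for EXPA18). The zone 3 call of EXPA18 was lost without zone 1 replicate 2 (0.091) or zone 3 replicate 1 (0.094). SCN1, whose product confines hair outgrowth to 1 site per cell, was called higher in zone 4 at 1.04 (adjusted p = 0.035), just over 2-fold. That call was lost with each array centred on its median (0.67, adjusted p = 0.13), with a replicate block (0.055), without the prior's trend (0.068), without either zone 1 array (0.051 and 0.08) and without either zone 4 array (0.18 and 0.17). The transcription factor gene AT2G14760 and XTH26, a xyloglucan endotransglucosylase gene, were below the filter, with signals of at most 22 and 7.51. XTH26 had differences of -1.52 in zone 3 and -0.65 in zone 4 against zone 1.

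Meristem markers ran the other way between zones 1 and 3. Of 10 loci listed, 4 had a named probe set, BBM, AUR1, AUR2 and AUR3, so most of the list was not analysed here. Of 4 tested, 4 were lower in zone 3 than in zone 1, as were 20.0% of all probe sets, and 2 were lower in zone 2 than in zone 1, as were 4.78%. BBM, a meristem transcription factor gene, had a difference of -6.17 in zone 3 (SE 1.01, adjusted p = 0.0013). It passed the signal filter only through zones 1 and 4, with means of 8.18 and 6.21 in zones 2 and 3. The mitotic kinase genes AUR1, AUR2 and AUR3 had -2.43, -3.35 and -3.24 (adjusted p = 0.0028, 0.00048 and 0.022), and AUR3 was not called without either zone 1 array (0.087 and 0.06) or zone 3 replicate 1 (0.062). BBM and AUR2 were higher in zone 4 than in zone 3, by 5.53 and 2.97 (adjusted p = 0.033 and 0.017), against 1.85% of all probe sets. Neither held without zone 3 replicate 1 (0.089 for each) or without either zone 4 array (0.11 to 0.29), and BBM also not without zone 2 replicate 1 (0.051). Without the prior's trend both were lost (0.066 and 0.065), and BBM, with 1.6 and 10.8 in zone 3, was lost with the filter at 60% (0.091) and with dim signals raised (2.21, adjusted p = 0.054). BBM's zone 3 against zone 1 difference was then -2.85 (adjusted p = 0.0017). In zone 2 against zone 1 the same 2 were lower, with differences of -5.19 and -1.75, and neither was called without zone 1 replicate 1 (0.11 and 0.12) or zone 2 replicate 2 (0.11 and 0.26). BBM was also lost there with the filter at 60% (0.056), and AUR2 without zone 2 replicate 1 (0.059), without either zone 4 array (0.052 for each) and without the trend (0.068). In zone 4 against zone 1 none was called, with differences from -0.66 to -0.38. The summed signal of the 4 markers was 1603 to 3421 in zone 1, 865 to 921 in zone 2, 184 to 478 in zone 3 and 1445 to 1865 in zone 4, with none at 0. That of the 5 root hair genes was 736 to 829, 1200 to 1580, 1624 to 1768 and 1931 to 3359, with none at 0, and SCN1 alone made up 775.1 and 719.1 of it in zone 1 and 1402 and 1394 in zone 3. Of 11 cortex and endodermis loci listed, 2 had a named probe set. Against zone 1, AT1G09750 was called higher in zones 2, 3 and 4, by 4.54, 5.59 and 4.38 (limma adjusted p = 0.004, 0.00026 and 0.0021). Of all probe sets tested, 7.28%, 18.0% and 10.5% were called higher there. AT1G62500 was called in none of these, with -1.25, -0.83 and 0.91, and its zone 3 difference was -1.59 without zone 3 replicate 2. The part of these cell types in the extensin signals was not tested.

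The genes whose profile was most like the mean of the 5 extensin-type genes included a peroxidase and a xyloglucan enzyme gene. Likeness was Pearson's r of log2 signal over the 8 arrays with the mean of the standardised signals, among 7465 other named genes past the filter. The 10 highest had r from 0.982 to 0.990, and 327 genes had r over 0.9, so the 10 are not set apart from those that follow. First came AT5G17820, a class III peroxidase gene, with 9.2 and 2.4 in zone 1, 56 and 671.1 in zone 2, 1467 and 1360 in zone 3, and 2282 and 4586 in zone 4. Over the 6 arrays of zones 2 to 4 it had r = 0.992. SCN1 had r = 0.988, from 775.1 and 719.1 in zone 1 to 1606 and 1464 in zone 4, but r = 0.925 with each array centred on its median, where the other 9 had 0.978 to 0.989. XTH21, a xyloglucan endotransglucosylase gene, had 0.987, and 0.975 over zones 2 to 4. AT1G15400, AT1G78260, AT5G65660, AT3G44510, AT4G01140, AT1G51850, a receptor-like kinase gene, and AT1G13930 completed the 10. Over zones 2 to 4 the 10 had r from 0.882 to 0.992. The mean includes AT3G54580, whose own signals went differently, and the points share the arrays and the step from zone 1.

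**Figure D3:**
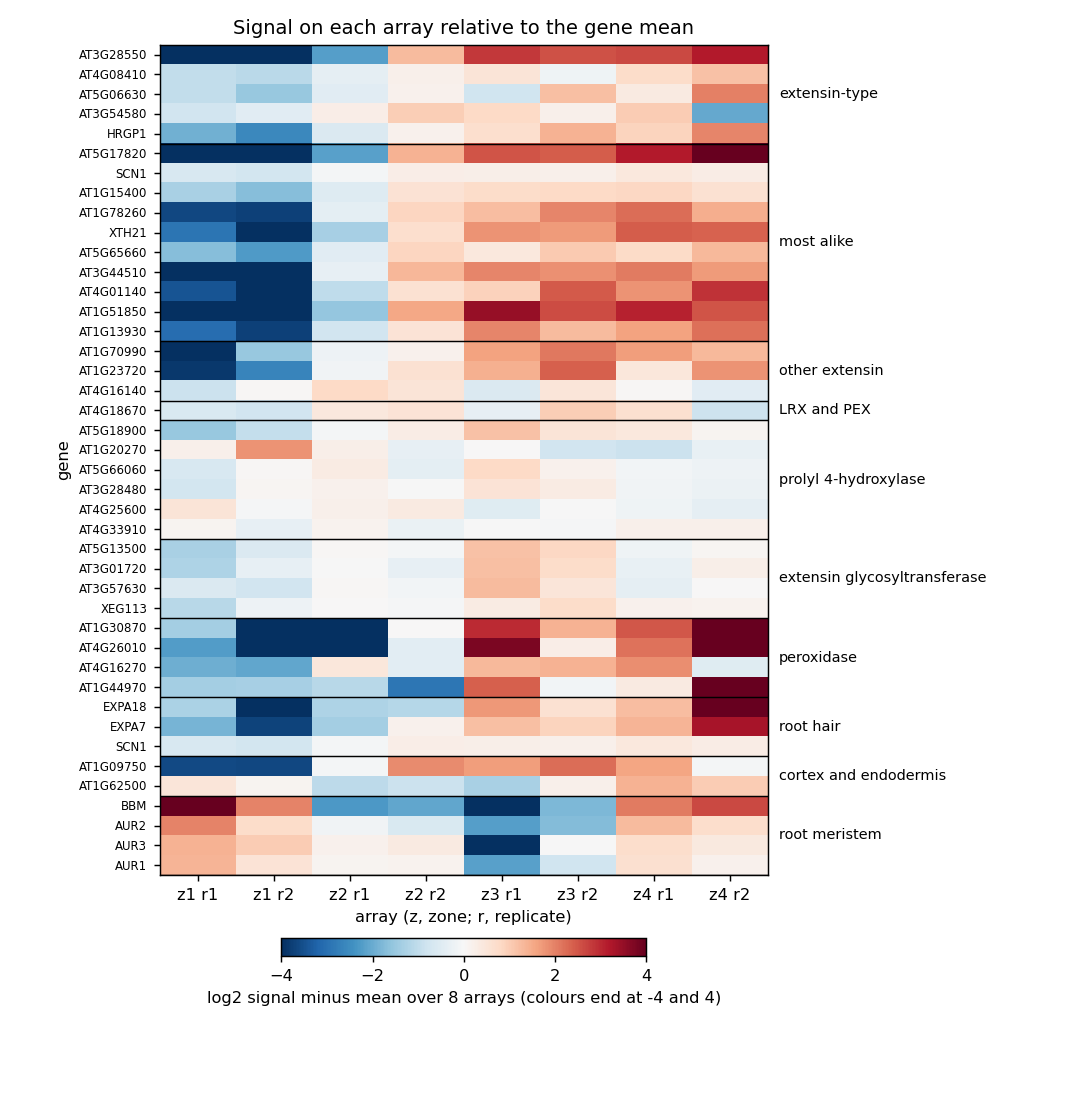
Log2 signal on each array minus the gene's mean over the 8 arrays (red above, blue below; colours end at -4 and 4) for the 5 extensin-type genes, the 10 genes most like them and the tested genes of each list. The extensin-type and most alike genes are blue in both zone 1 arrays, the glycosyltransferase genes are reddest in zone 3, and the meristem markers are red in zones 1 and 4.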

How the data were processed

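Total RNA from root sections was amplified in 2 cycles and put on Affymetrix arrays, as the labels' protocols state. The deposited files hold, for every probe set, a linear MAS5 intensity (signal), per the submitters' processing notes; its version is not given in the sources used here. The trimmed mean was 250 on each array. Of 22810 probe sets, 64 controls were left out, and 13513 of the rest were paired with 1 gene by the platform annotation; 13436 of these matched a locus of TAIR10.1, used for names and gene order only. Where a locus had more than 1 probe set the brightest stood for it.

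Log2 signals without offset were fitted in limma 3.58.1 (R 4.3.3) with 1 mean per zone over 8 arrays, 4 residual degrees of freedom and a trended prior (6.5 degrees of freedom). The dimmest 40% by mean signal were left out, and 13647 remained, over which Benjamini-Hochberg adjustment ran. Calls needed a 2-fold difference and an adjusted p below 0.05, two-sided. Each SE is limma's moderated one. The fit was tested on simulated data with normal noise. Changes were added there in zone 4 only and to brighter probe sets only, so that test does not cover dim probe sets. The members and 13 gene lists (150 loci, 46 with a named probe set, and 5 lists with none) were chosen with earlier results of these data known. The adjusted p-values of list genes are therefore a description. Named genes are the members, up to 4 per list with the largest zone 3 against zone 1 difference, and the 10 of most like profile. Planned protein and promoter features were not analysed here. Summaries used Python 3.11.15, pandas 2.3.3, numpy 2.4.6 and matplotlib 3.10.9.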

Additional observations from a re-analysis of the deposited data

How the results depend on the processing

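With 2 arrays per zone the precision is low, and 3 of the 5 extensin-type genes lay near the dim end of the arrays. The median log2 difference over the 5 genes was 1.23, 1.45 and 2.43 for zones 2, 3 and 4 against zone 1. It became 0.54, 0.70 and 1.29 with an offset of 32 added to the signals, and 0.42, 0.83 and 1.39 when dim signals took their array's 40th percentile, because both settings compress differences among dim signals. With quantile normalization it was also lower, at 0.73, 0.99 and 1.79, and with each array centred on its median it was 1.12, 1.33 and 2.07. Leaving out 1 array at a time, it ranged from 0.87 to 1.58, from 1.24 to 2.46 (highest without zone 3 replicate 1) and from 1.79 to 3.28 (highest without zone 4 replicate 1), from 0.02 to 1.35 for zone 3 against zone 2 (without zone 2 replicate 1 and zone 3 replicate 1) and from 0.02 to 0.93 for zone 4 against zone 3 (without zone 3 replicate 1 and zone 4 replicate 1). The 2 genes called in zone 3 and the 2 in zone 4 against zone 1 numbered 2 in each of the 17 alternative settings. In zone 2 against zone 1 the count of 2 was 1 with a filter at 60%, with the offset, with dim signals raised and with a prior variance without trend, and 0 to 2 when 1 array was left out (0 without zone 2 replicate 2, 1 without zone 1 replicate 2). The cause of the other changes was not tested.

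Of the 46 list genes, only those past the signal filter could be called. The calls numbered 5, 0, 2, 17 and 9 in zone 2 against 1, 3 against 2, 4 against 3, 3 against 1 and 4 against 1. Meristem markers called lower made up 2 of the 5 and 4 of the 17, and all other calls were higher. Of all probe sets tested, 7.28%, 0%, 1.85%, 18.0% and 10.5% were called higher. Those called lower were 4.78% in zone 2 against 1 and 20.0% in zone 3 against 1. Without trend the counts for zone 2 against 1 and zone 4 against 3 were 3 and 0. Leaving out 1 array gave 0 to 7, 0 to 2, 0 to 5, 11 to 17 and 3 to 9. For zone 2 against 1 the lowest count was without zone 2 replicate 2, with 2 or 3 without zone 1 replicate 1, zone 2 replicate 1 or either zone 4 array. For zone 3 against 2 and zone 4 against 3 the highest were without zone 3 replicate 2, and for the latter 0 came without zone 3 replicate 1 or either zone 4 array and 1 without zone 2 replicate 1. The 11 came without zone 3 replicate 1 and the 3 without zone 4 replicate 2. Among differences that changed sign, AT5G06630 in zone 4 against zone 3 ranged from -0.03 to 2.00 when 1 array was left out. In zone 4 against zone 1, AT5G66060 (0.14, adjusted p = 0.84 in limma) had -0.22 with each array centred on its median and -0.19 to 0.48 with 1 array left out, BBM had -1.65 to 0.36 and AUR2 -1.01 to 0.25. Arrays with the same replicate number did not deviate together (correlations from -0.192 to 0.037 over probe sets), and zones 3 and 4 gave the lowest. With a replicate block the extensin-type genes called were 2, 0, 0, 2 and 2 and the list genes 4, 0, 2, 17 and 8, and of the named genes AT5G18900 lost its zone 2 call (adjusted p = 0.054) and SCN1 its zone 4 call (adjusted p = 0.055).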
